A study of Mus musculus with 6 samples.

Results

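Gene expression was compared between the 4 arrays of cells that received ritonavir and the 2 arrays of cells that did not, out of 6 arrays in all, and the arrays were chosen by whether their treatment label holds ritonavir. The cells were 3T3-L1 adipocytes, a mouse line of preadipocytes that fills with fat after hormonal induction. All cultures were induced with insulin, isobutylmethylxanthine and dexamethasone and were then kept with insulin and their treatment for 5 days. In the first experiment the treatments were ethanol at 0.1%, tenofovir at 1 µM and ritonavir at 20 µM. In the second experiment ritonavir at 20 µM was combined with DMSO at 0.1%, with c9,t11-CLA at 100 µM or with t10,c12-CLA at 100 µM, which are isomers of conjugated linoleic acid. Whether ethanol was present with tenofovir, with ritonavir alone or in the second experiment is not given in the labels. Nor is it given whether DMSO was present beside the CLA isomers. The vehicle may therefore differ between the arrays, also among those with ritonavir. Ritonavir is an HIV protease inhibitor and tenofovir an inhibitor of reverse transcriptase. Each treatment was measured once, on RNA pooled from 4 replicate experiments, so there is no spread between replicates.

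The experiment is partly confounded with the comparison, since 3 of the 4 ritonavir arrays come from the second experiment and neither array without ritonavir does. The first experiment alone holds arrays with and without the drug. The ritonavir arrays also differ among themselves in what was added, so they are not replicates of 1 condition and no test was made. An exact permutation test over arrays of 4 against 2 could give a one-sided p of 0.0667 at best. In place of a test, each gene was described by its gap, the difference on the log2 scale between the lowest ritonavir array and the highest array without ritonavir, or, for a lower gene, between the highest ritonavir array and the lowest array without it. A gap of 0 means that the sets overlap. Where a value is given with DMSO or with a CLA isomer, ritonavir was present too. In a gene with a gap, ritonavir alone also lies past both ethanol and tenofovir within the first experiment. That follows from the definition of the gap and is not separate support for it.

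Fat cells store triglyceride in droplets and secrete hormones called adipokines, a programme that the nuclear receptor PPARγ and C/EBPα switch on during maturation. Lysosomes are the acidic organelles in which cells degrade lipids, sugars and proteins, and their genes often carry the sequence CACGTG, bound by the factors TFEB, TFE3 and MITF, near their start. HIV protease inhibitors are known to disturb fat tissue in patients and the maturation of cultured fat cells.

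The arrays were RMA-processed log2 values with medians between 6.54 and 6.56. Probe sets stood for 18194 genes, and 12386 of these are called detected because 1 or more arrays reached 6.55, the middle value of the whole table. All 9 adipocyte markers looked at (Adipoq, Fabp4, Cidec, Cd36, Lpl, Pparg, Cebpa, Slc2a4 and Lipe) reached that level on every array, with medians of 13.4 on both arrays without ritonavir and between 10.2 and 12.6 on the ritonavir arrays. The actin control sets differed between their 3' and 5' ends by 0.32 and 0.35 on the arrays without ritonavir and by 0.19 to 0.54 on those with it.

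In all, 3539 of the detected genes (28.6%) were above both other arrays on all 4 ritonavir arrays, 2798 (22.6%) were below, and 6049 overlapped. These shares are the background for the counts of list members given below. At a gap of at least 2-fold there were 83 higher genes (0.67%) and 183 lower genes (1.48%). A gap of 1.5-fold was reached by 293 higher (2.37%) and 440 lower genes (3.55%), and one of 3-fold by 18 (0.145%) and 70 (0.565%). After values under the detection level had been raised to it, 67 higher (0.541%) and 166 lower genes (1.34%) had a gap of at least 2-fold. The lower genes thus outnumbered the higher ones at 2-fold, whereas by any amount the higher ones were more numerous. That surplus was smaller after the arrays were quantile-normalized again, with 3226 higher and 3087 lower genes, and without the detection filter, with 3888 and 3706.

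The 4 arrays contributed unequally. Taken singly, ritonavir alone had 492 genes (3.97%) at least 2-fold above both other arrays and 738 (5.96%) below. The array with DMSO had 142 (1.15%) and 311 (2.51%), that with c9,t11-CLA 115 (0.928%) and 224 (1.81%), and that with t10,c12-CLA 324 (2.62%) and 548 (4.42%). The 3 arrays of the second experiment together had 92 (0.743%) and 193 (1.56%). These counts share their control arrays. The c9,t11-CLA array lay nearest to the arrays without ritonavir for 48 of the 83 higher and 126 of the 183 lower genes, and so set their gap. Ritonavir alone lay farthest away for 35 and 129 of them, and t10,c12-CLA for 38 and 37.

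**Figure D1:**
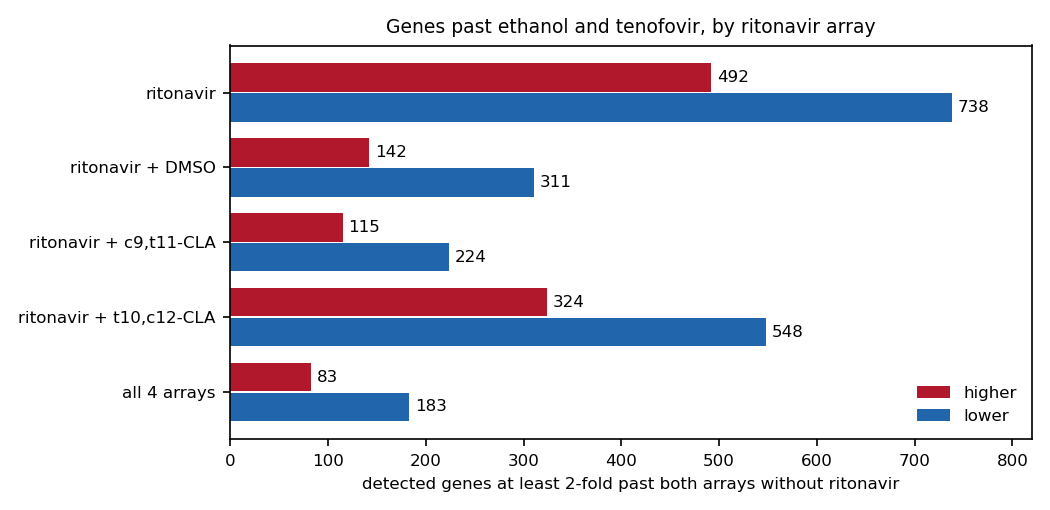
Horizontal bars give the number of detected genes (x axis, from 0) at least 2-fold above or below both the ethanol and the tenofovir array, for each ritonavir array and for all 4 together. The array of ritonavir alone has the longest bars (492 and 738) and the c9,t11-CLA array the shortest of the single arrays (115 and 224), while 83 and 183 genes pass on all 4.

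Over all detected genes, the array of ritonavir alone was nearer to that of ritonavir with t10,c12-CLA, with a median absolute difference of 0.17, than to that of ritonavir with DMSO, with 0.212. The DMSO and c9,t11-CLA arrays were 0.0915 apart, close to the 0.0766 between ethanol and tenofovir. Within the lower 2-fold genes, the median difference from the mean of the arrays without ritonavir was -2.54 with ritonavir alone, -1.70 with DMSO, -1.49 with c9,t11-CLA and -2.21 with t10,c12-CLA. For the higher 2-fold genes the medians were 1.85, 1.53, 1.38 and 1.83. The median range over the ritonavir arrays was 0.711 for the higher and 0.934 for the lower genes, against 0.0896 and 0.0963 between the 2 arrays without ritonavir. The range was smaller than the gap for 71 of the 83 higher genes and 133 of the 183 lower genes.

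The widest gaps belonged to lower genes. Ffar4, the receptor for long-chain fatty acids also called GPR120, was 11.94 with ethanol and 11.92 with tenofovir, against 5.63 with ritonavir alone, 6.49 with DMSO, 6.62 with c9,t11-CLA and 5.89 with t10,c12-CLA. Of its 4 ritonavir arrays, 3 lay under the detection level and that with c9,t11-CLA just above it, and the gap was -5.30, or 39.4-fold. Ghrh, which encodes growth hormone-releasing hormone, was 11.93 with ethanol and 11.57 with tenofovir, against 6.73 with ritonavir alone, 7.16 with DMSO, 7.01 with c9,t11-CLA and 6.41 with t10,c12-CLA, a gap of -4.41. The ritonavir arrays ranged over 0.99 for Ffar4 and 0.74 for Ghrh, small beside the gaps, and neither gene overlapped.

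The acute phase genes followed. Lcn2, encoding the iron-siderophore binding protein lipocalin 2, was 13.65 with ethanol and 13.61 with tenofovir, against 9.42 with ritonavir alone, 9.82 with DMSO, 9.57 with c9,t11-CLA and 9.79 with t10,c12-CLA. Its ritonavir arrays lay within 0.39 of each other, far below the other pair. Hp, the gene of the haemoglobin-binding protein haptoglobin, was 11.64 with ethanol and 11.63 with tenofovir, against 6.87 with ritonavir alone, 7.94 with DMSO, 8.06 with c9,t11-CLA and 7.24 with t10,c12-CLA, a gap of -3.57 with no overlap. Pck1, whose enzyme supplies glycerol backbone for triglycerides in fat cells, was 9.72 with ethanol and 9.72 with tenofovir, against 4.15 with ritonavir alone, 5.67 with DMSO, 5.91 with c9,t11-CLA and 4.13 with t10,c12-CLA. All its ritonavir values were under the detection level, so its gap of -3.81 is uncertain in size and was -3.17 against that level.

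Of the growth factor genes, Igf2, encoding insulin-like growth factor 2, was 12.21 with ethanol and 12.32 with tenofovir, against 9.20 with ritonavir alone, 9.17 with DMSO, 9.27 with c9,t11-CLA and 8.75 with t10,c12-CLA. Its ritonavir arrays lay within 0.53 of each other, lowest with t10,c12-CLA, and the gap was -2.94. Inhbb, which encodes an activin subunit, had a gap of -3.14 but a range of 2.33, with the DMSO and c9,t11-CLA arrays higher than the other ritonavir arrays. Car9, the carbonic anhydrase induced by hypoxia, had a gap of -3.14, and Ranbp3l one of -3.59, both with all 4 ritonavir values under the detection level. The other genes of the 15 with the largest gaps downward, ranked after low values had been raised to the detection level, were Ang3 (-3.18), the synuclein gene Sncg (-2.70), the semaphorin gene Sema3g (-2.64), the apolipoprotein gene Apoc1 (-2.55), the ubiquitin ligase gene Rnf144b (-2.50) and the adipokine gene C1qtnf12 (-2.46). Ang3 belongs to a family of near-identical ribonuclease genes whose probes may not be specific, and another probe set of C1qtnf12 overlapped between the sets. When all probe sets of a gene were averaged, the gaps of Pck1, Inhbb, Igf2, Rnf144b and C1qtnf12 shrank to -1.49, -1.86, -1.68, -1.15 and -1.62. Pck1, Igf2 and Rnf144b had no other detected probe set, so their averages include sets under the detection level.

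Among the higher genes, Mlana had the widest gap. It encodes MART-1, a protein of the melanosome, a pigment organelle related to the lysosome, and was 5.64 with ethanol and 5.40 with tenofovir, against 9.93 with ritonavir alone, 10.07 with DMSO, 9.83 with c9,t11-CLA and 9.22 with t10,c12-CLA. The array with t10,c12-CLA was the lowest of its ritonavir arrays and still 3.58 above ethanol, or 2.66 above the detection level. Mreg, whose product melanoregulin acts in the transport of melanosomes, was 5.41 with ethanol and 5.74 with tenofovir, against 8.87 with ritonavir alone, 9.18 with DMSO, 8.76 with c9,t11-CLA and 8.48 with t10,c12-CLA, a gap of 2.74, or 1.93 with raised values. The list of MiT/TFE factors and melanosomal genes to which both belong had no common direction. Of its 13 detected members 5 were above and 4 below, the median difference between the sets' means was 0.04, and Tfeb had a gap of -0.50 and Rab32 of -0.30.

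With raised values, Gdpd1, Abcc4 and Nceh1 ranked between Mlana and Mreg. Gdpd1, a glycerophosphodiester phosphodiesterase gene, was 7.44 with ethanol and 7.49 with tenofovir, against 9.59 with ritonavir alone, 9.89 with DMSO, 9.64 with c9,t11-CLA and 10.05 with t10,c12-CLA. Abcc4, encoding the efflux pump MRP4 for drugs and cyclic nucleotides, was 8.71 with ethanol and 8.84 with tenofovir, against 11.03 with ritonavir alone, 11.27 with DMSO, 10.89 with c9,t11-CLA and 11.32 with t10,c12-CLA. Nceh1, the gene of a cholesterol ester hydrolase, was 6.93 with ethanol and 6.71 with tenofovir, against 10.15 with ritonavir alone, 9.42 with DMSO, 8.97 with c9,t11-CLA and 9.80 with t10,c12-CLA. The 3 gaps were 2.10, 2.05 and 2.05, and in each the 4 ritonavir arrays lay clear of the other pair, with Nceh1 the most uneven (range 1.18).

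The other large gaps upward were those of the secreted carbonic anhydrase Car6 (1.83), monoamine oxidase A Maoa (1.80), the epoxide hydrolase Ephx2 (1.74), the corneodesmosin gene Cdsn (1.73), the lysosomal transporter Mfsd1 (1.69), the chemokine Ccl9 (1.68), the dipeptidyl peptidase gene Dpp7 (1.66), Gbp6 (1.58), and a pair of amino sugar genes, Amdhd2 (1.62), which encodes a deacetylase of N-acetylglucosamine phosphate, and Uap1l1 (1.62). Among the genes with the largest gaps upward, Mlana, Mreg, Ephx2 and Gbp6 were lowest with t10,c12-CLA among their ritonavir arrays. Nceh1, Cdsn, Ccl9, Amdhd2 and Uap1l1 were highest with ritonavir alone. Gbp6 is one of a family of similar genes, so its probe set may not be specific.

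**Figure D2:**
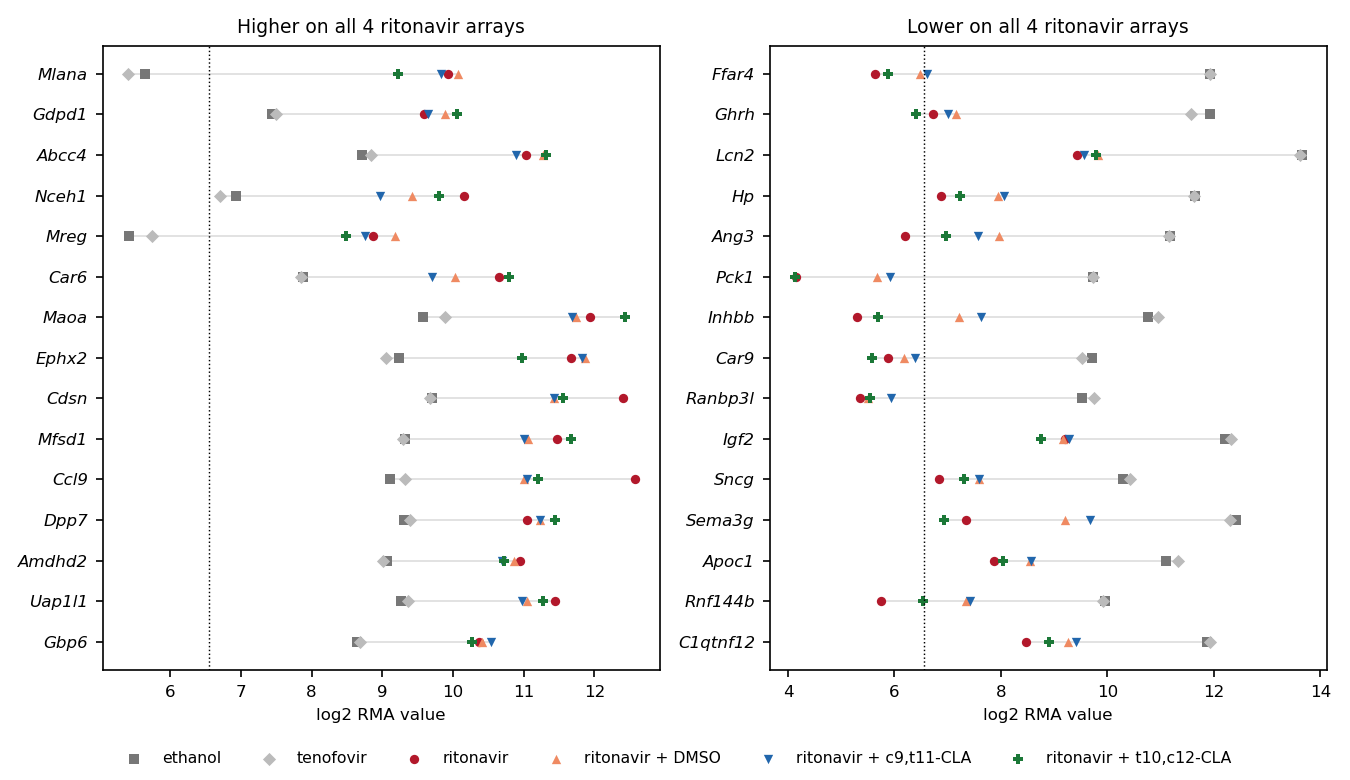
The log2 RMA value (x axis) of each of the 6 arrays is drawn for the 15 genes with the largest gaps in each direction, with grey markers for ethanol and tenofovir, coloured markers for the ritonavir arrays and a dotted line at the detection level of 6.55. In every row the 4 ritonavir arrays lie on one side of the grey markers, closest together for genes such as Amdhd2 and Lcn2 and most spread for Sema3g and Inhbb.

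Some genes had nearly the same value on all 4 ritonavir arrays. The 2-fold genes with the smallest ranges were, among the lower, Fam117b, Slc2a1, Lef1, Krt79 and Cx3cl1. Slc2a1, which encodes the glucose transporter GLUT1, was 13.45 with ethanol and 13.24 with tenofovir, against 12.05 with ritonavir alone, 11.96 with DMSO, 12.01 with c9,t11-CLA and 11.998 with t10,c12-CLA. Its range of 0.10 over the ritonavir arrays was below the 0.21 between ethanol and tenofovir, and its gap was -1.18. Fam117b was 9.96 with ethanol and 9.89 with tenofovir, against 8.79 with ritonavir alone, 8.77 with DMSO, 8.81 with c9,t11-CLA and 8.78 with t10,c12-CLA, a range of 0.04. Lef1, a transcription factor of the Wnt pathway, had a gap of -1.02 and a range of 0.12, the keratin gene Krt79 -1.13 and 0.17, and the chemokine gene Cx3cl1 -1.09 and 0.21. Another probe set of Cx3cl1 overlapped, and Krt79 had a gap of only -0.64 above the detection level.

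Among the higher genes the smallest ranges were those of Clcn7, Neu1, Morn4, Sirpa and Dennd2a. Clcn7, which encodes the chloride-proton exchanger of lysosomes, was 9.27 with ethanol and 9.23 with tenofovir, against 10.41 with ritonavir alone, 10.45 with DMSO, 10.41 with c9,t11-CLA and 10.55 with t10,c12-CLA. Neu1, the gene of lysosomal sialidase, was 9.07 with ethanol and 9.20 with tenofovir, against 10.36 with ritonavir alone, 10.21 with DMSO, 10.26 with c9,t11-CLA and 10.23 with t10,c12-CLA. Morn4, Sirpa, which encodes a receptor for CD47, and Dennd2a had gaps of 1.07, 1.06 and 1.02 and ranges of 0.17, 0.20 and 0.20. These genes were chosen for their small range, which is therefore only a description. Averaged over all probe sets of the gene, the gaps of Clcn7, Sirpa, Fam117b and Cx3cl1 were 0.43, 0.56, -0.52 and -0.38. Fam117b had no other detected probe set, so its average includes sets under the detection level.

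The lysosomal lists were higher on every ritonavir array and to a similar degree. Of 23 detected genes for lysosomal hydrolases and membrane proteins, 20 lay above both other arrays on all 4 and 0 below, where 28.6% and 22.6% of all detected genes did. The median difference was 0.74 with ritonavir alone, 0.60 with DMSO, 0.68 with c9,t11-CLA and 0.78 with t10,c12-CLA, against 0.01 to 0.04 over all genes. Gaps of at least 2-fold were seen for Ctsk (1.19), encoding the collagen-degrading protease cathepsin K, Gla (1.17), encoding α-galactosidase A, and Neu1. Glb1, Gusb and Lipa, named here as the exceptions after their values were seen, overlapped.

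Ctsk was 8.65 with ethanol and 8.80 with tenofovir, against 10.86 with ritonavir alone, 9.99 with DMSO, 9.99 with c9,t11-CLA and 10.69 with t10,c12-CLA. Gla was 9.18 with ethanol and 9.15 with tenofovir, against 10.995 with ritonavir alone, 10.52 with DMSO, 10.35 with c9,t11-CLA and 11.36 with t10,c12-CLA. For both, ritonavir alone and t10,c12-CLA were the higher ritonavir arrays, and the lowest was still clear of the arrays without the drug. Of 15 detected genes for the V-ATPase, the pump that acidifies lysosomes, and its partners, 14 were above and 0 below. Their median differences on the ritonavir arrays, in the same order as above, were 0.50, 0.49, 0.51 and 0.60. After Clcn7, the pump subunit gene Atp6v1h had the largest gap, 0.80, and Atp6v1b2, named as the exception after its values were seen, overlapped. The gaps of Npc2 (0.02) and Atp6v0e (0.0032), counted as above, were minimal, and that of Atp6v1h was 0.39 over all its probe sets. No other probe set of Atp6v1h was detected, so its average includes sets under the detection level.

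**Figure D3:**
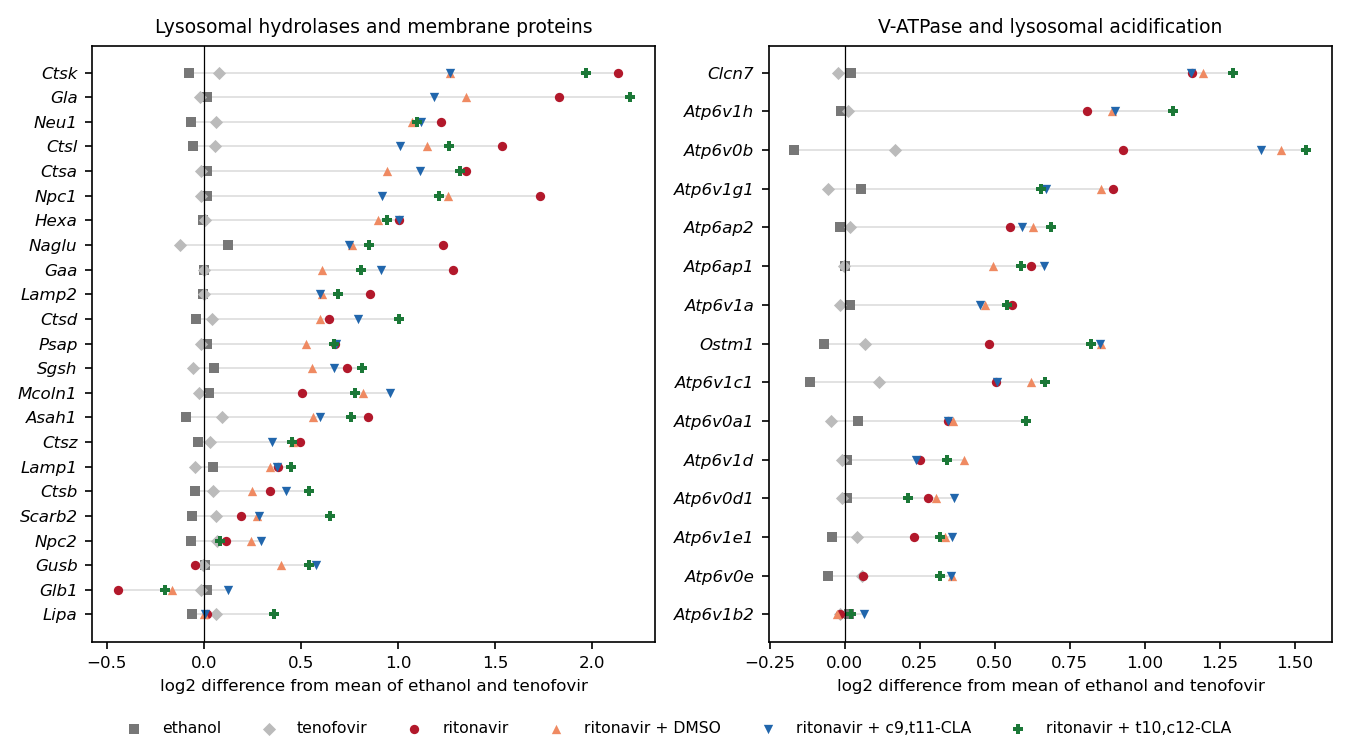
Each row is a detected gene of the lysosomal or the V-ATPase list, and the x axis gives the difference in log2 RMA value between each array and the mean of the ethanol and tenofovir arrays. The 4 ritonavir arrays lie to the right of the grey markers for 34 of the 38 genes, with overlap for Glb1, Gusb, Lipa and Atp6v1b2.

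The transcription start regions of these genes were searched for CACGTG, on either strand, from 250 bases before to 50 after each start in RefSeq (GRCm38.p6). Of the 31 lysosomal and V-ATPase genes with a promoter in that table, 15 (48.4%) held it, and so did 16 of 65 (24.6%) of the genes at least 2-fold higher. Among all detected genes 11.5% held it, and among those at least 2-fold lower 11 of 137 (8.03%). Mfsd1 held 5 matches, Amdhd2 3 and Clcn7 2 in one of its promoters. Gla held 2, and Klf15, a gene at least 2-fold lower, held 3. Mfsd1, Amdhd2 and Clcn7 are shown as higher genes with several matches, chosen after their matches were seen. The letters read the same on both strands, so each match is counted once. A match describes the letters and is not a binding site.

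The promoters are printed from 5′ to 3′ on the strand of the gene, with the CACGTG matches in capitals. That of Mfsd1 lies at chr3:67582518-67582817 on the plus strand, that of Amdhd2 at chr17:24163684-24163983 on the minus strand, and that of Clcn7 at chr17:25133141-25133440 on the plus strand.
Mfsd1: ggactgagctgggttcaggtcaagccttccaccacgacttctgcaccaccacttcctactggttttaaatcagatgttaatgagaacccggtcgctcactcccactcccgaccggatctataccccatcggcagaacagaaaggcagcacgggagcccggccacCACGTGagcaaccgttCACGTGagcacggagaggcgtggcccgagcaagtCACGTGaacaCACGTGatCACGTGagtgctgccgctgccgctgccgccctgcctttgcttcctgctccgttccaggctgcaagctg
Amdhd2: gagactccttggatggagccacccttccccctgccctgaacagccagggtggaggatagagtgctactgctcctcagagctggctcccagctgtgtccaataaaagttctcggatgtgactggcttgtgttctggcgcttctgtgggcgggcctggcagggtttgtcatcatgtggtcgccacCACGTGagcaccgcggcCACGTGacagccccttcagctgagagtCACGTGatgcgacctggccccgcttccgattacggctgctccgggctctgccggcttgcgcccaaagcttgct
Clcn7: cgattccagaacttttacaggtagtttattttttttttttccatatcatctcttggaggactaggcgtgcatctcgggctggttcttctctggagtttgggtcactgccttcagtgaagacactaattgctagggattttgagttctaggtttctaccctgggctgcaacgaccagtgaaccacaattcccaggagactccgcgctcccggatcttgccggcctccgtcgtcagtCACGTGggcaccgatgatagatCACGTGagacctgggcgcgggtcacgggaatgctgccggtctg

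Around the lysosome, the differences were smaller. Of 17 detected autophagy genes 8 were above, among them Sqstm1 (0.71), encoding the cargo receptor p62, and Gabarapl1 (0.55), and 3 were below, with Atg9a at -0.39. Of all detected genes 28.6% were above and 22.6% below. Sqstm1 was 12.32 with ethanol and 12.26 with tenofovir, against 13.04 with ritonavir alone, 13.03 with DMSO, 13.12 with c9,t11-CLA and 13.51 with t10,c12-CLA. Its t10,c12-CLA array was the highest and the other ritonavir arrays lay close together. The median difference of the autophagy list was 0.19.

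Genes of the mature fat cell were lower on all 4 ritonavir arrays but very unevenly. Of 18 detected mature adipocyte markers 13 were below both other arrays, 7 of them by at least 2-fold, and 0 above. The median difference was -3.55 with ritonavir alone, -0.99 with DMSO, -0.73 with c9,t11-CLA and -2.004 with t10,c12-CLA. At least 2-fold lower on a single array were 16, 8, 7 and 13 of them. In pooled RNA fewer fat cells and less RNA per fat cell cannot be told apart.

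Car3, the carbonic anhydrase of fat and muscle, was 13.10 with ethanol and 13.41 with tenofovir, against 6.90 with ritonavir alone, 10.41 with DMSO, 10.93 with c9,t11-CLA and 8.42 with t10,c12-CLA. Slc2a4, the gene of the insulin-regulated glucose transporter GLUT4, was 11.84 with ethanol and 11.72 with tenofovir, against 8.10 with ritonavir alone, 10.18 with DMSO, 10.34 with c9,t11-CLA and 8.30 with t10,c12-CLA. Adipoq, encoding adiponectin, was 14.79 with ethanol and 14.82 with tenofovir, against 10.18 with ritonavir alone, 14.64 with DMSO, 14.67 with c9,t11-CLA and 13.08 with t10,c12-CLA. The gaps of Car3 and Slc2a4 were -2.17 and -1.38, while Adipoq, which is near the top of the scale, had one of -0.12, because its DMSO and c9,t11-CLA arrays stayed close to ethanol. Lep, encoding leptin, was low on all arrays, with a gap of -1.57, or -0.38 with raised values. Fabp4, Lpl, Pnpla2, Agpat2 and Adig, named as exceptions after their values were seen, overlapped.

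Of 18 detected adipogenic transcription factors 15 were below and 0 above, with medians of -0.73, -0.49, -0.37 and -0.60. Pparg, which encodes PPARγ, was 12.97 with ethanol and 12.95 with tenofovir, against 10.48 with ritonavir alone, 11.89 with DMSO, 12.09 with c9,t11-CLA and 11.25 with t10,c12-CLA. Cebpa, which encodes C/EBPα, was 12.18 with ethanol and 12.21 with tenofovir, against 8.68 with ritonavir alone, 11.49 with DMSO, 11.86 with c9,t11-CLA and 10.65 with t10,c12-CLA. Both were lowest with ritonavir alone and highest, among the ritonavir arrays, with c9,t11-CLA. Their gaps were -0.86 and -0.32. The gaps of at least 2-fold were those of Klf15 (-1.56), a factor that acts with PPARγ in adipogenesis, and Ebf2 (-1.32), a factor of brown and beige fat cells. Of the 13 detected adipokines and secreted factors 9 were below, 6 by at least 2-fold, and the insulin-like growth factor binding protein gene Igfbp3 was the 1 above (0.72).

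Igfbp3 was 7.16 with ethanol and 7.11 with tenofovir, against 7.88 with ritonavir alone, 7.99 with DMSO, 8.04 with c9,t11-CLA and 8.01 with t10,c12-CLA. Its ritonavir arrays lay within 0.16 of each other and above both others. Its direction was thus opposite to that of Igf2, whose product it can bind.

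Lipid metabolism was lower as well, with few wide gaps. Of 16 lipid droplet and lipolysis genes 12 were below. Mgll, encoding monoacylglycerol lipase, was 9.75 with ethanol and 9.94 with tenofovir, against 6.28 with ritonavir alone, 7.13 with DMSO, 7.32 with c9,t11-CLA and 7.25 with t10,c12-CLA, and Pnpla3, encoding a lipid droplet protein, was 10.19 with ethanol and 10.17 with tenofovir, against 6.56 with ritonavir alone, 7.64 with DMSO, 7.998 with c9,t11-CLA and 6.42 with t10,c12-CLA. Both had all ritonavir arrays more than 2 log2 units below the others, although another probe set of Mgll overlapped. Of 12 triglyceride synthesis genes 8 were below, with Gpd1, which makes glycerol phosphate, at -1.10.

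Fatty acid and cholesterol synthesis separated the arrays differently. Of 17 fatty acid synthesis genes 11 were below but 0 by 2-fold, and of 19 cholesterol genes 12 were below, again 0 by 2-fold. The cholesterol list had medians of -1.01 with ritonavir alone and -1.07 with t10,c12-CLA, against -0.14 with DMSO and -0.12 with c9,t11-CLA. Fasn, encoding fatty acid synthase, was 12.81 with ethanol and 12.83 with tenofovir, against 11.34 with ritonavir alone, 12.41 with DMSO, 12.67 with c9,t11-CLA and 11.34 with t10,c12-CLA. Scd1, encoding stearoyl-CoA desaturase, was 14.76 with ethanol and 14.74 with tenofovir, against 12.32 with ritonavir alone, 14.04 with DMSO, 14.18 with c9,t11-CLA and 12.33 with t10,c12-CLA. In both, ritonavir alone and t10,c12-CLA gave almost the same value, and DMSO and c9,t11-CLA lay nearer to ethanol. The gap of Scd1 was -0.56, or -1.40 over all its probe sets. Elovl6, encoding a fatty acid elongase, was the 1 gene of its list above, with a gap of 0.32, and Ebp the 1 of the cholesterol list, with 0.08. The gap of Sqle, encoding squalene epoxidase, was -0.56, and that of Pmvk -0.61.

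Glycolytic and hypoxia-responsive genes were below on all 4 arrays without exception among the 17 detected. The medians were -0.74 with ritonavir alone, -0.64 with DMSO, -0.52 with c9,t11-CLA and -0.89 with t10,c12-CLA, so this list was more even than the fat cell markers. Gaps of at least 2-fold belonged to Car9, to the hypoxia-induced gene Ankrd37 (-1.83) and to Egln3 (-1.33), an oxygen-sensing hydroxylase gene named after its values were seen. Ankrd37 was 11.12 with ethanol and 11.26 with tenofovir, against 7.73 with ritonavir alone, 9.13 with DMSO, 9.29 with c9,t11-CLA and 7.54 with t10,c12-CLA. Its ritonavir arrays formed pairs, ritonavir alone with t10,c12-CLA and DMSO with c9,t11-CLA.

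Among insulin signalling genes 9 of 19 were below and 3 above, against 22.6% and 28.6% of all detected genes. Pde3b, the phosphodiesterase through which insulin restrains lipolysis, was 12.43 with ethanol and 12.42 with tenofovir, against 9.06 with ritonavir alone, 11.16 with DMSO, 11.22 with c9,t11-CLA and 9.89 with t10,c12-CLA, and Slc2a1 and Slc2a4 were the other 2-fold genes. Akt1 (0.41), of whose 3 other detected probe sets 2 overlapped, and Trib3 (0.80), which encodes a pseudokinase that can inhibit AKT and is also induced by ATF4, were among those above.

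**Figure D4:**
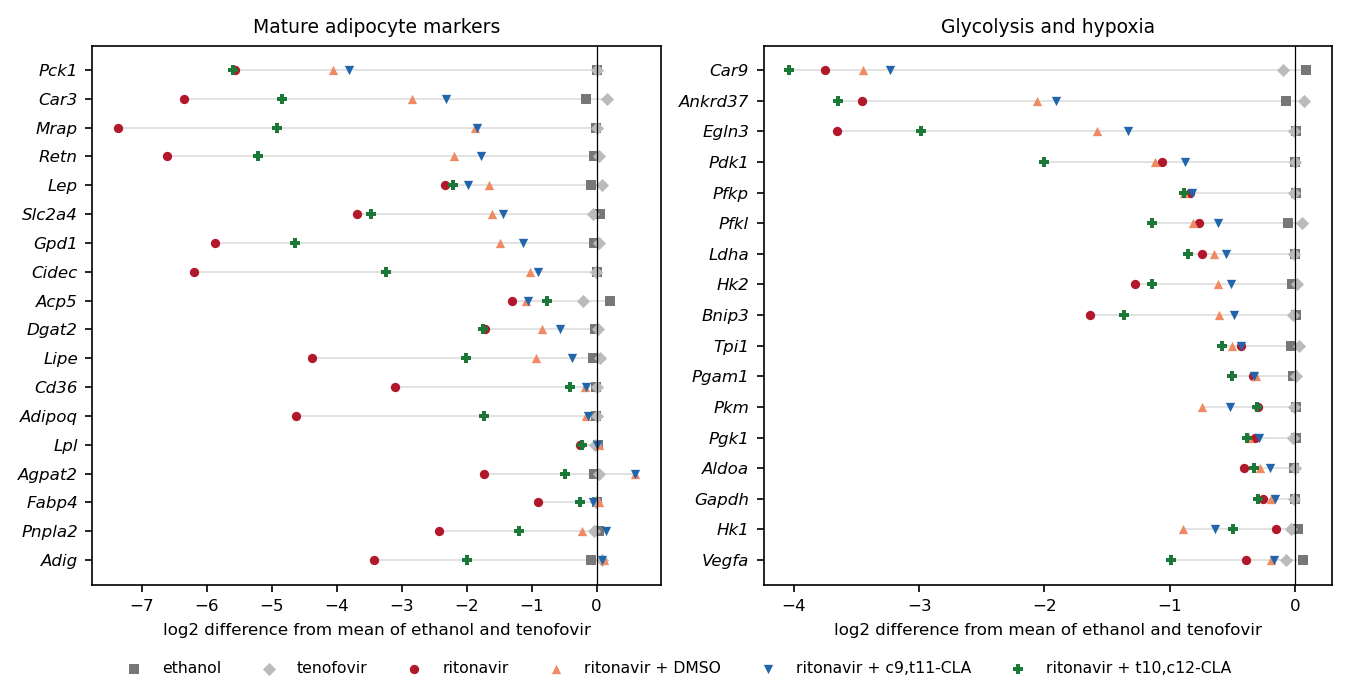
Rows are detected genes of the mature adipocyte list and of the glycolysis and hypoxia list, and the x axis is the difference in log2 RMA value of each array from the mean of the ethanol and tenofovir arrays. The adipocyte markers spread widely, with ritonavir alone farthest to the left in most rows, while all 17 genes of the glycolysis and hypoxia list have their 4 ritonavir markers left of the grey ones.

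Oxidative phosphorylation genes differed by small amounts. Of the 27 detected 12 were below and 0 above, against 22.6% and 28.6% of all detected genes. The medians were -0.46 and -0.26 for ritonavir alone and t10,c12-CLA against -0.03 and -0.01 for DMSO and c9,t11-CLA. The gap of Uqcrfs1, a complex III subunit gene, was -0.30, and that of Uqcrc1 -0.17. Of 15 genes for maintenance of mitochondrial DNA and its regulators 5 were above and 3 below, against 28.6% and 22.6% of all detected genes. Ppargc1a, encoding the coactivator PGC-1α, was 8.47 with ethanol and 8.51 with tenofovir, against 10.50 with ritonavir alone, 10.25 with DMSO, 10.13 with c9,t11-CLA and 9.80 with t10,c12-CLA, above on all 4 arrays by at least 1.29. Its relative Ppargc1b went the other way by -0.05. Rrm2b, a ribonucleotide reductase gene, was above (0.49) and Polg, the mitochondrial polymerase gene, below (-0.09), both with another probe set that overlapped. For Polg the arrays also overlapped when all probe sets were averaged.

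Of 17 fatty acid oxidation genes 9 were below and 1 above. The 1 above was Pdk4 (0.59), whose kinase switches off pyruvate dehydrogenase. Acadvl and Etfb had the widest gaps downward, -0.58 and -0.42. Cpt1a, encoding the carnitine transferase that admits fatty acids to mitochondria, differed in direction between the experiments, as 374 genes (3.02%) did in the same way by any amount. It was 9.79 with ethanol and 9.65 with tenofovir, against 9.32 with ritonavir alone, 9.91 with DMSO, 10.04 with c9,t11-CLA and 11.04 with t10,c12-CLA.

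Cell cycle genes were lower in 19 of the 22 detected, against 22.6% of all detected genes. Their medians were -1.62 with ritonavir alone, -0.96 with DMSO, -0.50 with c9,t11-CLA and -1.07 with t10,c12-CLA. Cenpa, the centromeric histone gene, was 10.23 with ethanol and 10.15 with tenofovir, against 7.47 with ritonavir alone, 8.65 with DMSO, 8.92 with c9,t11-CLA and 8.48 with t10,c12-CLA. Ccnb2, encoding cyclin B2, was 9.62 with ethanol and 9.64 with tenofovir, against 7.04 with ritonavir alone, 8.02 with DMSO, 8.43 with c9,t11-CLA and 7.79 with t10,c12-CLA. Both were lowest with ritonavir alone and, among the ritonavir arrays, highest with c9,t11-CLA. The gap of Cenpa was -1.23, or -0.53 over all its probe sets, none of the others detected, and that of Ccnb2 -1.19. Ccnd1, encoding cyclin D1, was the 1 gene of the list above. It was 8.91 with ethanol and 8.80 with tenofovir, against 10.96 with ritonavir alone, 9.57 with DMSO, 9.62 with c9,t11-CLA and 10.97 with t10,c12-CLA, with ritonavir alone and t10,c12-CLA together and far above the rest.

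The letters TTTGAA, found in the cell cycle homology region of mitotic genes, were looked for in the same windows on either strand. They were in 11 of 19 cell cycle genes with a promoter (57.9%) and in 13.9% of all detected genes. Of the genes at least 2-fold lower, 19 of 137 (13.9%) held them, and of those at least 2-fold higher 12 of 65 (18.5%). The promoter of Ccnb2, shown as the cyclin with the widest gap of the list, lies at chr9:70421505-70421804 on the minus strand. Matches are in capitals, from 5′ to 3′.
Ccnb2: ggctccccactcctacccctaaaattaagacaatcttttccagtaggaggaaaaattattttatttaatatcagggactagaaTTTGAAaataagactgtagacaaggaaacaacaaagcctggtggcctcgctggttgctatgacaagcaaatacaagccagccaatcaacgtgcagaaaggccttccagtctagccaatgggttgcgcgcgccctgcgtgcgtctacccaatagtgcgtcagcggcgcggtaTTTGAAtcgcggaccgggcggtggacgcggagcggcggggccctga

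Stress genes divided by pathway. The list of ATF4, CHOP and the amino acid response had 12 of 23 genes above and 3 below, against 28.6% and 22.6% of all detected genes. Its medians were close on all arrays, 0.47 with ritonavir alone, 0.39 with DMSO, 0.36 with c9,t11-CLA and 0.36 with t10,c12-CLA. Ddit3, which encodes CHOP, was 11.99 with ethanol and 12.09 with tenofovir, against 13.69 with ritonavir alone, 13.58 with DMSO, 13.39 with c9,t11-CLA and 13.41 with t10,c12-CLA. Atf3, encoding a stress-induced transcription factor, was 8.60 with ethanol and 8.57 with tenofovir, against 9.70 with ritonavir alone, 10.42 with DMSO, 10.13 with c9,t11-CLA and 10.52 with t10,c12-CLA. The gaps were 1.30 and 1.11, and Ddit3 was the more even. In the opposite direction Ddit4, an inhibitor of mTORC1 induced by hypoxia as well, had -0.59 and Vldlr -0.39. Of the 5 other detected probe sets of Vldlr, 2 overlapped.

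The unfolded protein response list did not share one direction. Its median was -0.26 with ritonavir alone but 0.29 with DMSO, 0.27 with c9,t11-CLA and 0.19 with t10,c12-CLA. Of its 20 genes 6 were above and 2 below, against 28.6% and 22.6% of all detected genes. The sensors Atf6 (0.71) and Ern1 (0.50) were above and Xbp1 (-0.45), which encodes a factor that ERN1 activates by splicing, below. Atf6 was 8.52 with ethanol and 8.64 with tenofovir, against 9.36 with ritonavir alone, 9.46 with DMSO, 9.35 with c9,t11-CLA and 9.51 with t10,c12-CLA, and its gap was 0.40 over all its probe sets. Other probe sets of Ern1 and Xbp1 overlapped.

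Of 28 proteasome genes 18 were above and 1 below, against 28.6% and 22.6% of all detected genes. The amounts were small, with medians of 0.13, 0.28, 0.20 and 0.47. Psma7 had a gap of 0.45 and Psmc2 of 0.24. Psma1 was the 1 below (-0.57), and its 2 other detected probe sets overlapped. Among heat shock genes 7 of 13 were above, led by Cryab (1.13), encoding the small chaperone αB-crystallin, then Hsph1 (0.40), and Dnajb1 was below (-0.24).

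Of 22 NRF2 and antioxidant genes 9 were above and 1, Taldo1 (-0.22), below, against 28.6% and 22.6% of all detected genes. The highest median, 0.47, was with t10,c12-CLA, and the others lay between 0.11 and 0.21. Gsta4, encoding a glutathione transferase for lipid aldehydes, was 10.88 with ethanol and 11.01 with tenofovir, against 11.61 with ritonavir alone, 12.32 with DMSO, 12.27 with c9,t11-CLA and 12.996 with t10,c12-CLA. Gsta3 had a gap of 0.96 that closed to 0 with raised values, and both are members of a family of similar genes.

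Xenobiotic genes showed no common direction, with 3 of 15 above, Abcc4 among them, and 5 below, against 28.6% and 22.6% of all detected genes. Ces1f and Cyp2f2 had gaps of -1.11 and -1.06, and that of Abcb1b, encoding a P-glycoprotein, 0.60, closed to 0 with raised values. In the nuclear lamina list 5 of 15 genes were above and 9 below, against 28.6% and 22.6% of all detected genes, and 0 by 2-fold. Among those below were Tmpo (-0.73) and Lmna (-0.34), the lamin A/C gene, which had another probe set that overlapped. Zmpste24, encoding the protease that processes prelamin A and that protease inhibitors of this class can inhibit, was 10.79 with ethanol and 10.78 with tenofovir, against 11.02 with ritonavir alone, 11.03 with DMSO, 11.05 with c9,t11-CLA and 11.26 with t10,c12-CLA, slightly above on all 4 (0.23). The gap of Emd, encoding the lamina protein emerin, was 0.31.

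Interferon-stimulated genes were above in 14 of the 18 detected and below in 2, against 28.6% and 22.6% of all detected genes. The medians were 0.49 with ritonavir alone, 0.22 with DMSO, 0.40 with c9,t11-CLA and 0.64 with t10,c12-CLA. Bst2, encoding the virus-tethering protein tetherin, was 9.50 with ethanol and 9.52 with tenofovir, against 11.82 with ritonavir alone, 10.93 with DMSO, 10.88 with c9,t11-CLA and 11.68 with t10,c12-CLA. Ifit1, encoding an RNA-binding antiviral protein, was 8.14 with ethanol and 8.22 with tenofovir, against 9.40 with ritonavir alone, 9.41 with DMSO, 9.70 with c9,t11-CLA and 10.26 with t10,c12-CLA. Their gaps were 1.36 and 1.18. Gbp2 and Cxcl10 were the members below, by -0.09 and -0.01.

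In the inflammation list 10 of 20 genes were above and 5 below, against 28.6% and 22.6% of all detected genes. It held some of the widest gaps in either direction, Ccl9 against Lcn2 and Hp. Ptgs2, encoding cyclooxygenase 2, had a gap of 1.26, or 0.61 with raised values and 0.60 over all its probe sets, none of the others detected. Ccl2, encoding the monocyte chemokine MCP-1, was 7.96 with ethanol and 8.06 with tenofovir, against 9.36 with ritonavir alone, 8.54 with DMSO, 8.59 with c9,t11-CLA and 10.61 with t10,c12-CLA. Il6 was 5.42 with ethanol and 5.56 with tenofovir, against 8.79 with ritonavir alone, 6.92 with DMSO, 6.36 with c9,t11-CLA and 7.59 with t10,c12-CLA, and its gap of 0.80 closed to 0 with raised values. For Il6 the highest array was ritonavir alone, whereas for Ccl2 it was t10,c12-CLA.

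Of 9 macrophage markers 4 were detected. Their mean level was 7.30 and 7.10 on the arrays without ritonavir and 7.72, 7.84, 7.68 and 8.34 on the ritonavir arrays. Cd68 (1.23) and Cd14 (0.31) were above, Csf1r and Lyz2 overlapped, and the other 5 stayed under the detection level. Cd68, which encodes a lysosomal membrane protein, was 6.87 with ethanol and 6.75 with tenofovir, against 8.71 with ritonavir alone, 8.43 with DMSO, 8.11 with c9,t11-CLA and 10.10 with t10,c12-CLA. All cultures were of the same preadipocyte line, so these markers do not show that macrophages were present. The relation of these markers to the interferon and inflammation values was not tested.

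Markers of other cell types were detected in part. Of 8 endothelial markers 2 were detected and both overlapped. Of 10 skeletal muscle markers 3 were detected, with Ckm at -0.26, although another probe set of Ckm overlapped. Of 7 bone and cartilage markers with a probe set 5 were detected, with Sox9 at 0.18, Sp7 at -0.15 and Alpl at -0.07. Among 6 detected epithelial markers 4 were below, with Krt19 at -2.29 and Krt18 at -1.12. All ritonavir values of both were under the detection level, and with raised values the gaps were -1.84 and -0.23.

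**Figure D5:**
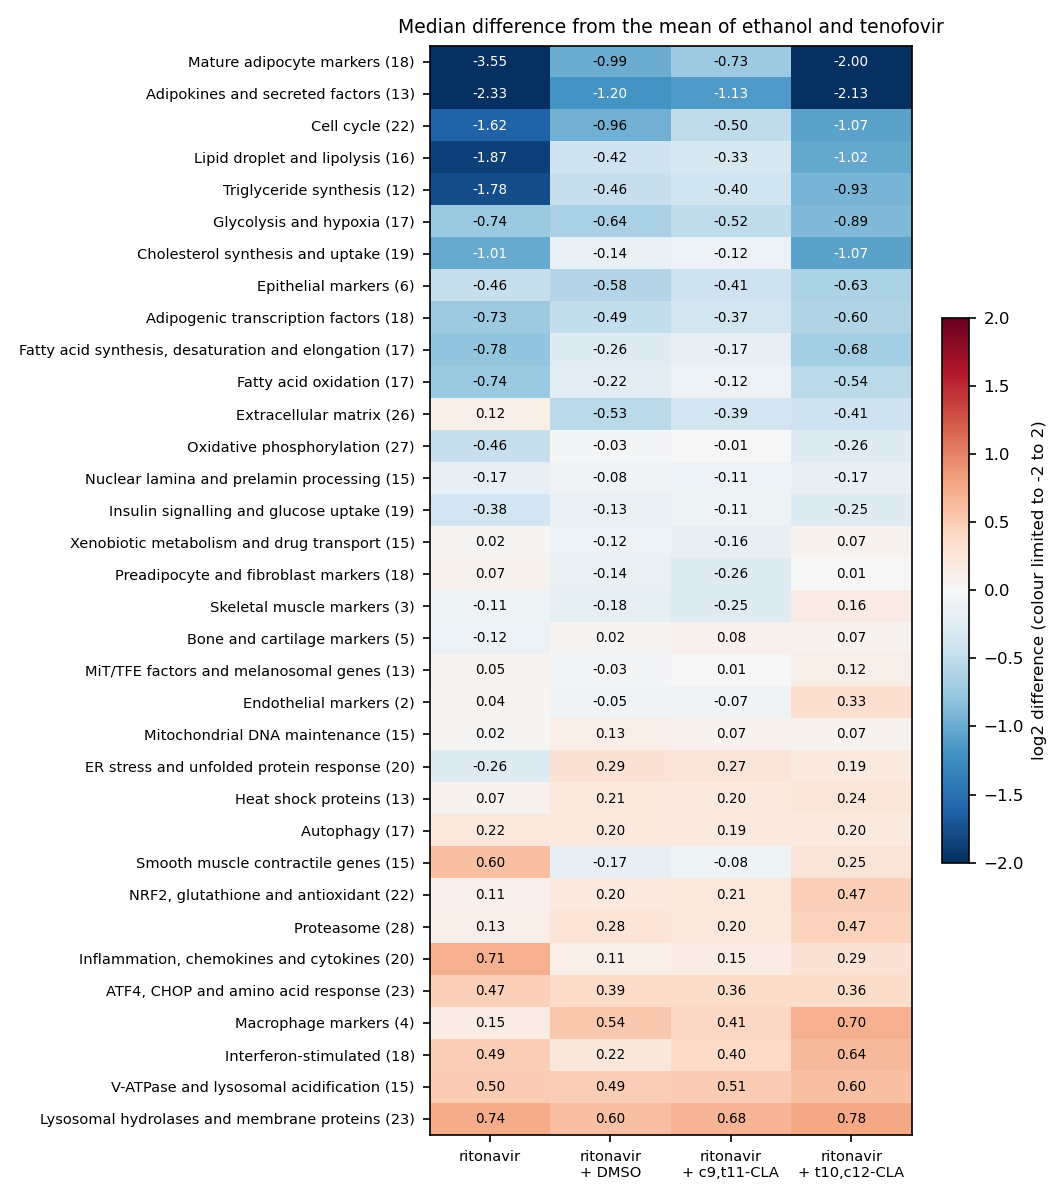
Each cell of the heat map gives, for a gene list (rows, with the number of detected members) and a ritonavir array (columns), the median log2 difference from the mean of the ethanol and tenofovir arrays. The colour scale ends at 2 in either direction. The lysosomal row is positive at 0.74, 0.60, 0.68 and 0.78 and the mature adipocyte row negative at -3.55, -0.99, -0.73 and -2.004, while the matrix row changes sign between ritonavir alone and the other arrays.

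On matrix and contractile genes, the medians of the ritonavir arrays differed in sign. The same was seen on other lists, among them the unfolded protein response, xenobiotic and preadipocyte lists. The matrix list had a median of 0.12 with ritonavir alone and of -0.53, -0.39 and -0.41 on the arrays of the second experiment. Of its 26 detected genes 17 overlapped, against 6049 of all 12386 detected genes. The smooth muscle list had 0.60 with ritonavir alone, -0.17 with DMSO, -0.08 with c9,t11-CLA and 0.25 with t10,c12-CLA. Experiment and additive cannot be told apart here, since ritonavir without an additive was measured in the first experiment only.

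Col1a1, encoding a chain of type I collagen, was 12.61 with ethanol and 12.49 with tenofovir, against 13.50 with ritonavir alone, 11.30 with DMSO, 11.41 with c9,t11-CLA and 11.65 with t10,c12-CLA. Mgp, encoding matrix Gla protein, was 11.64 with ethanol and 11.77 with tenofovir, against 13.14 with ritonavir alone, 10.73 with DMSO, 10.66 with c9,t11-CLA and 10.61 with t10,c12-CLA. With Dpep1 and Fst they were the 4 genes (0.0323%) at least 1.5-fold above both other arrays with ritonavir alone and at least 1.5-fold below both on all 3 arrays of the second experiment, and they are named here after their values were seen. No gene showed the reverse at 1.5-fold, and none was opposite at 2-fold. By any amount 242 genes (1.95%) were above with ritonavir alone and below in the second experiment, and 374 (3.02%) the reverse.

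Within these lists some genes did go one way on all 4 arrays. Loxl1, which encodes a collagen crosslinking enzyme, was 11.68 with ethanol and 11.55 with tenofovir, against 12.57 with ritonavir alone, 12.35 with DMSO, 12.53 with c9,t11-CLA and 12.60 with t10,c12-CLA. Its gap was 0.67 and its ritonavir arrays lay close together. Tagln and Acta2, smooth muscle genes of transforming growth factor responses, were above by 0.66 and 0.35, with ritonavir alone far above the rest. Acta2 overlapped when its probe sets were averaged, although no other probe set of it was detected. Smtn (-1.24) and Myh11 (-0.98), both of contractile smooth muscle, and the matrix genes Lum (-0.82) and Col4a2 (-0.50) were below. Of 18 detected preadipocyte and fibroblast markers 14 overlapped, against 6049 of all 12386 detected genes, 2 were above, Pdgfrb (0.08) and S100a4 (0.03), and 2 below. The gap of S100a4 closed when the arrays were quantile-normalized again. Wnt10b had a gap of -0.13. Dlk1, the preadipocyte gene whose product blocks maturation, had a gap of -0.04, and its value with ritonavir alone, 12.57, was close to ethanol while the others lay between 10.91 and 11.23.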

How the data were processed

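The values were log2 expression per probe set on 6 Affymetrix mouse arrays, made by the authors with RMA in Affymetrix Expression Console, per the submitters' processing notes, which name neither its version nor its settings. Per the labels' protocols, RNA from 4 replicate experiments was pooled before hybridisation. RMA corrects background and makes the distributions of the arrays equal, so a shift shared by most genes would not show, and values near the top of the scale (15.01 at most) are compressed.

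Of 45101 probe sets, 34958 had 1 gene symbol in GEO's platform annotation (34754 were matched to RefSeq by gene ID), 932 had several and 9211 were unlisted, and the latter 2 kinds were not used here. Each of 18194 genes was represented by the probe set with the highest mean. Files with detection calls were not used here, so the median of the table, 6.55, served as the detection level. Gaps, list medians and counts were computed in Python 3.11.15 with numpy 2.4.6 and pandas 2.3.3. The array number limits the precision, and with 1 array per treatment no error can be given. The gap script was tested on simulated data.

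The arrays and the 34 gene lists were chosen with earlier results of these data known. The text names the 15 genes with the largest gaps in each direction after values under the detection level were raised to it, the 5 genes of at least 2-fold with the smallest range in each direction, 11 listed genes (Adipoq, Ccl2, Cebpa, Cpt1a, Ddit3, Fasn, Il6, Lep, Pparg, Scd1 and Slc2a4) and the widest gaps of each list. Of the 135 genes so chosen, 54 had another detected probe set. Of the 134 whose arrays separated, 12 had such a probe set whose arrays overlapped. Alternatives changed the probe set rule, the detection level, the threshold, the normalization and the arrays. Promoters were taken from RefSeq, and 10009 of the detected genes had one there.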

Additional observations from a re-analysis of the deposited data

Results flagged for a closer look

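Cpt1a differed in direction between the experiments. It was 9.79 with ethanol and 9.65 with tenofovir, against 9.32 with ritonavir alone, 9.91 with DMSO, 10.04 with c9,t11-CLA and 11.04 with t10,c12-CLA. With ritonavir alone it lay below both arrays without ritonavir, by -0.34, whereas all 3 arrays of the second experiment lay above them, by at least 0.12. That is less than the 0.14 between ethanol and tenofovir. By any amount 374 of the detected genes (3.02%) showed the same pattern. The difference between the experiments was not tested, and the 2 other detected probe sets of Cpt1a overlapped. The experiment and the added DMSO or CLA cannot be told apart as to their part in it.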

How the results depend on the processing

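The 83 higher and 183 lower genes at 2-fold became 67 and 166 after low values had been raised to that level, 56 and 146 with all probe sets of a gene averaged (52 and 140 of them shared with the original calls), 75 and 154 without probe sets marked as cross-hybridising, 84 and 186 without a filter, and 77 and 189 after the arrays were quantile-normalized again (77 and 183 shared). Leaving out each array in turn gave 85 to 106 higher and 188 to 244 lower genes at 2-fold, and 3808 to 4274 higher and 3020 to 3561 lower by any amount, always more because fewer arrays have to separate. The stricter level, the 75th percentile of the table (8.77), left 1828 genes lower by any amount, with fewer genes tested. A 1.5-fold threshold gave 293 and 440 genes and 4 opposite between the experiments, and a 3-fold threshold 18 and 70. The difference of the means, which needs no separation, gave 242 higher and 464 lower genes at 2-fold and 6586 and 5800 by any amount. The first experiment alone, with 1 ritonavir array, gave 492 and 738 at 2-fold and 5710 and 5523 by any amount. Under it the number of members above minus below turned to -6 for the unfolded protein response, 1 for xenobiotic metabolism, 7 for smooth muscle and 7 for matrix genes, and the cause was not tested. Of 135 named genes 0 changed direction under the probe set average, the raised values or the renormalization, and 47, 14 and 0 moved by more than 0.113, the robust SD over genes of the difference between tenofovir and ethanol. The gaps of Polg and Acta2 closed under the probe set average, those of Gsta3, Abcb1b and Il6 with raised values, and that of S100a4 after renormalization. For named genes the probe set average includes sets under the detection level. No gene list changed direction after renormalization, which for the lists was chosen after seeing the data, although as many smooth muscle members were then above as below. No paired analysis was possible because each treatment has 1 array. Values under the detection level, which 18 of the higher and 68 of the lower 2-fold genes hold on at least 1 array, limit how far their gaps can be read.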
